A study of Mus musculus with 9 samples.

Results

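Poly(A) RNA from 6 of the 9 libraries of the series was compared here: the 3 libraries whose titles end in 7, 8 and 9 against the 3 whose titles end in 1, 2 and 3. All were made from D2.0R, a mouse mammary adenocarcinoma cell line, loaded with CellTrace Far Red, a dye diluted at each division, and kept for 1 week in DMEM with 2% serum after which bright and dim cells were separated by flow sorting. No animals, genotypes or drugs distinguish the libraries, and all of them come from this single line. The members are defined by title number, with no measured value in the rule, and were paired by position, 7 with 1, 8 with 2 and 9 with 3, called pair 1, pair 2 and pair 3 below.

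The labels do not tie any library to a sorted fraction. One description is shared by all samples and lists dye-positive, bulk and dye-negative cells in that order, each numbered 1 to 3. If the titles follow that order, libraries 7 to 9 are dye-poor and libraries 1 to 3 dye-retaining. That assignment is inferred from order, was not checked against a paper, and is not used below: every difference is given between libraries 7 to 9 and libraries 1 to 3. Nothing says that the libraries of a block came from separate cultures, so the spread behind the p-values may be technical. With position in the fit, that is the spread of the differences within pairs, with variance shared between genes.

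A dye of this kind binds cell proteins and is shared between daughter cells, so that a cell that stays undivided keeps its brightness. Cells that cycle make the replication machinery at the G1 to S boundary and the mitotic cyclins, kinases and kinetochore proteins in G2 and M. The factors FOXM1 and B-MYB act on many G2 and M genes. Promoters of G2 and M genes often hold CHR and CCAAT elements, and not every element is a site of these factors. Cells that leave the cycle keep both groups of genes low under the DREAM complex.

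The 6 libraries held between 18732737 (library 9) and 41243036 (library 7) estimated counts, and 3 counts corresponded to 0.0727 to 0.160 CPM. CPM of a tested gene are counts scaled to a common library size with TMM factors. Levels summed over a list, levels of genes too low to test and the CPM of 3 counts use library totals alone. Depth differed most in pair 3. Libraries also differed by position. On the leading principal component, which held 42.6% of the variance, libraries 2 and 8 had the highest scores (52.3 and 30.2), libraries 1 and 3 lay near 0 (0.97 and -2.23) and libraries 7 and 9 were lowest (-36.7 and -44.6), so that the later library of each pair also scored below its partner. The second component, with 34.5%, placed each library of 7 to 9 above its partner. Deviations from the block mean correlated at 0.44 for libraries 1 and 7, 0.70 for 2 and 8 and 0.51 for 3 and 9, and lay between -0.57 and 0.24 for libraries at different positions. What the positions stand for is not given in the labels.

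Epithelial and mesenchymal markers were used to check the cell line. Vim, an intermediate filament of mesenchymal cells, was between 3494 and 5832 CPM in the 6 libraries, and Krt8, an epithelial keratin, between 146 and 673 CPM. Among 21 epithelial genes, 10 were too low to test, with at most 0.369 CPM in any library; Epcam, Krt19 and the claudins searched were among them. Of 20 NK cell and leukocyte markers, 7 had no count in any of the 6 libraries, among them Cd3e, Ncr1 and Klrk1, and the summed level of the list ran from 9.11 to 17.7 CPM. The endothelial marker list summed to between 9.05 and 15.5 CPM, with Cdh5 at 0.

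Most listed genes for mitosis, DNA replication, glycolysis and cholesterol synthesis were higher in libraries 7 to 9 than in their partners. In the lists of matrix genes, of TGF-beta, BMP and YAP targets and of immediate early genes, more called members were lower than higher. The share of members called in each of these lists was above the 20.5% of all genes tested. As the lists were chosen with earlier results of these data known, such shares describe the lists and support nothing on their own. Of 14241 genes tested, 1502 were higher and 1411 lower in libraries 7 to 9, that is 10.5% and 9.91% of genes and 20.5% in all, by edgeR's quasi-likelihood test at an adjusted p under 0.05 with position as a factor. At least 2-fold changes were found in 265 of the higher and 406 of the lower genes. The median log2 fold change over all genes tested was -0.0007, and its 5th to 95th percentiles ran from -0.86 to 0.67. All 2913 called genes had the same direction in the 3 pairs, but only 712 of the higher and 921 of the lower genes had blocks that did not overlap, against 20.7% of all genes tested.

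The calls rest on the pairing. Without position in the fit 16 genes were higher and 58 lower, and of the called members of the gene lists described below Aldh1a3, Pfkp, Mmp3, Dusp1 and H2bc4 stayed called. Leaving out pair 1 left 324 higher and 349 lower genes, and leaving out pair 3 left 277 and 271, whereas without pair 2 there were 1771 and 1963. Of the 99 called genes described below, 56 stayed called whichever pair was left out and 17 without the pairing. Those that lost the call without 1 of the pairs include Mcm2, E2f8, Cdkn1a, Fbl, Cyp51, Adm, Col1a1, Mmp9, Cxcl5, Ccn2, H2-K1, Nuf2, Cenpf and Hmmr. No gene called in one direction was called in the other under these settings. Less RNA per cell and fewer cells of a kind cannot be told apart in bulk libraries.

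**Figure D1:**
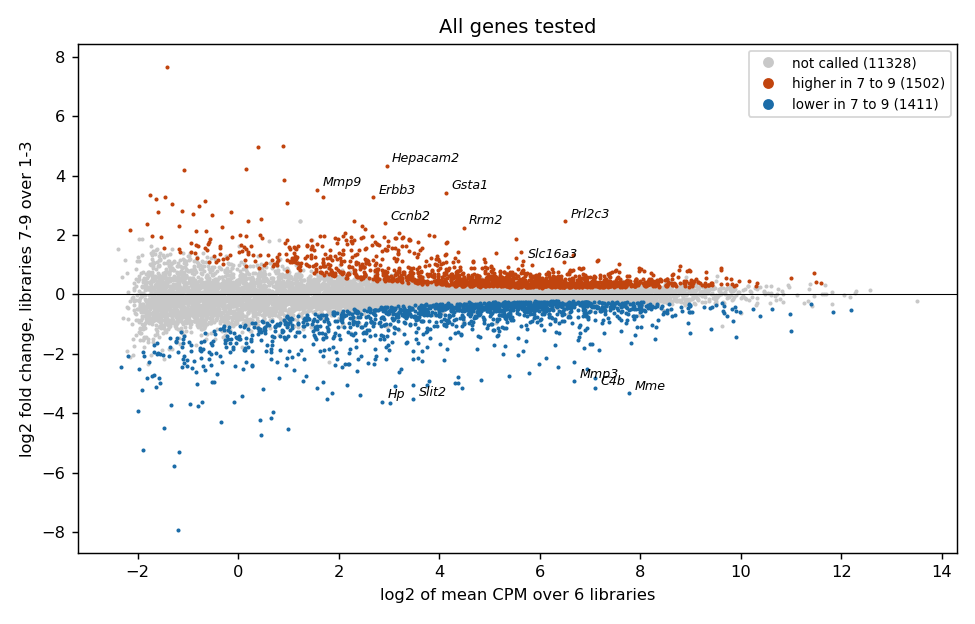
Log2 fold change of each of 14241 genes tested (libraries 7 to 9 over 1 to 3, vertical axis) against the log2 of its mean CPM over the 6 libraries (horizontal axis). Orange points are the 1502 genes called higher, blue points the 1411 called lower, grey points the rest. Names mark some of the genes described in the text.

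Genes of mitosis were higher in libraries 7 to 9 almost throughout. Of 28 mitotic cyclins, kinases and regulators, 26 were higher and 0 lower, with a median log2 fold change of 1.55, against 10.5% higher and a median of -0.0007 over all genes tested. Of 40 kinetochore, centromere and spindle genes, 37 were higher and 0 lower, with a median of 1.23. Leaving out pair 1, 2 or 3 left 21, 25 and 20 of the cyclin and kinase list and 26, 34 and 24 of the kinetochore list higher. Without the pairing, edgeR called 0 members of either list, while 4 of 28 and 3 of 40 were higher at an unadjusted p under 0.05, and the medians were 1.44 and 1.19.

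Mki67, whose protein Ki-67 coats mitotic chromosomes and marks cycling cells, was at 5.60, 63.3 and 4.99 CPM in libraries 1, 2 and 3 and at 28.1, 152 and 23.9 CPM in libraries 7, 8 and 9. It was higher in each library of 7 to 9 than in its partner, but library 2 lay above libraries 7 and 9, so the blocks overlapped. The paired log2 fold change was 1.86 ± 0.20 (adjusted p 0.0022). Here and below, ± is the standard error implied by the quasi-likelihood test, which shares variance between genes. It is not the spread of the 3 pair ratios, which for Mki67 were 2.31, 1.26 and 2.25.

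Ccnb2, which encodes cyclin B2, the partner of CDK1, was at 0.830, 7.26 and 0.482 CPM in libraries 1 to 3 and at 6.35, 26.4 and 3.97 CPM in libraries 7 to 9. Library 2 again exceeded libraries 7 and 9, and the paired change of 2.39 ± 0.24 (adjusted p 0.0017) was the greatest in the 2 mitosis lists. Ccnb1, cyclin B1, was at 2.32, 8.86 and 1.99 CPM against 8.31, 22.1 and 6.26 CPM, with overlap, and the log2 fold change was 1.57 (adjusted p 0.0012). Foxm1, the transcription factor of the G2 programme, was at 4.57, 20.4 and 4.79 CPM against 13.5, 50.6 and 10.4 CPM, with overlap and a log2 fold change of 1.33. Mybl2, which encodes B-MYB, changed by 1.35.

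In the kinetochore list Racgap1, a GTPase-activating protein of the cytokinetic midzone, was at 12.9, 32.0 and 12.6 CPM in libraries 1 to 3 and at 34.9, 84.2 and 32.1 CPM in libraries 7 to 9. The lowest of the second block lay just above the highest of the first block, and the log2 fold change was 1.39 ± 0.08 (adjusted p 0.00022). Bub1b, a spindle checkpoint kinase, was 1.57 ± 0.13 higher and Cenpa, the centromeric histone, 1.40 ± 0.12 higher on the log2 scale, with overlapping blocks. Ncapg, a condensin subunit, was at 3.15, 13.7 and 3.06 CPM against 16.4, 40.05 and 13.2 CPM, a change of 1.95 ± 0.16; its exons overlap those of Lcorl on the opposite strand, which had a mean of 44.5 CPM, and the sources used here do not say whether counting used strand. Nuf2, a microtubule-binding subunit of the NDC80 complex, changed by 2.29, Cenpf by 2.01 and Hmmr, a spindle-associated protein, by 2.08. The members not called were Wee1 (0.47), Cdk1 (0.34), Cenpu (0.60), Sgo2a (0.58) and Cenpk (0.69), named because so few missed the threshold.

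**Figure D2:**
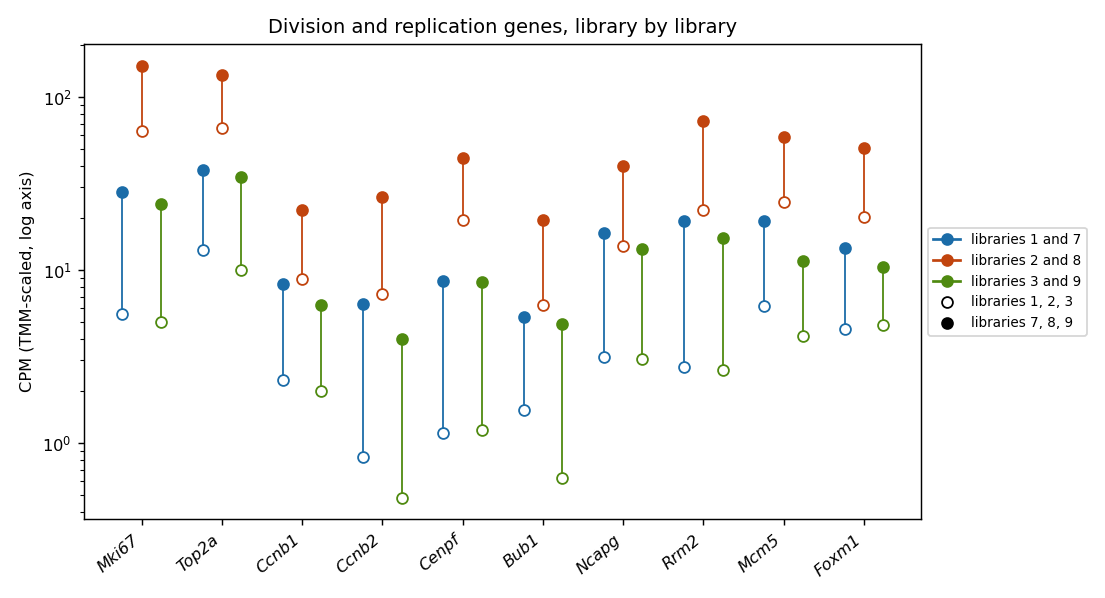
CPM (log axis) of 10 division and replication genes in each library; open circles are libraries 1 to 3, filled circles libraries 7 to 9, and a line joins the libraries of a pair. The filled circle lies above the open one in all 3 pairs of each gene, while libraries 2 and 8 lie above the other libraries of their block in every gene.

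Promoters of 4 genes are shown because their genes had the smallest p in the 2 mitosis lists among those whose window held both motifs searched. Each window runs from 250 bases before to 29 after the RefSeq start (GRCm38.p6), 5′ to 3′ on the gene's strand, and capitals mark the motif matches. The CHR was searched on both strands in the form TTTGAA and in the palindromic form that is written TTCGAA. The other motif is the box named CCAAT, which appears reversed and complemented where it lies on the other strand.
Racgap1, chr15:99651627-99651906, minus strand: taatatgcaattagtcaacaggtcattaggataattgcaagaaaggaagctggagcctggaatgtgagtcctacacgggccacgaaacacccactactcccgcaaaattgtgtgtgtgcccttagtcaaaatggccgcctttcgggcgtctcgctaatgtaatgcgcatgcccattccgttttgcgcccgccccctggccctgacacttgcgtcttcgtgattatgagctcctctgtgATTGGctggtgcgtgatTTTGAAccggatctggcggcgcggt
Bub1b, chr2:118597961-118598240, plus strand: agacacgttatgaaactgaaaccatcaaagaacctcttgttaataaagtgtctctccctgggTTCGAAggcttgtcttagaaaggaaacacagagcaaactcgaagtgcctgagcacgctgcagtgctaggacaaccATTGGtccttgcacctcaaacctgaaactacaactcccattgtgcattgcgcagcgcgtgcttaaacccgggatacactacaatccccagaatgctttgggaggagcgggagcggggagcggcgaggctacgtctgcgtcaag
Cenpa, chr5:30666636-30666915, plus strand: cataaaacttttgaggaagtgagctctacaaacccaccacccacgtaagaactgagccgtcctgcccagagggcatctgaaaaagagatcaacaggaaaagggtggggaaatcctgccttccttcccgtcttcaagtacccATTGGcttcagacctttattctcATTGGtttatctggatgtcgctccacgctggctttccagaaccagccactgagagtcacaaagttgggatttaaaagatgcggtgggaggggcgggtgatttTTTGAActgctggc
Ncapg, chr5:45669675-45669954, plus strand: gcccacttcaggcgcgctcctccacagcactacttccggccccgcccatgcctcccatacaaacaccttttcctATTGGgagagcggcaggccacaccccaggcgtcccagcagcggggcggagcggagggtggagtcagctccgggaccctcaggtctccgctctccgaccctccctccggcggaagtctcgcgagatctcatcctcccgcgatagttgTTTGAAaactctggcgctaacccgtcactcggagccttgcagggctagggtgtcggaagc

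The CHR match began 5 bases after the start in Racgap1 and 16 after it in Cenpa, and 188 bases before it in Bub1b and 30 before it in Ncapg. Of the 68 tested genes of the 2 mitosis lists, 57 matched 62 RefSeq windows, and 62.9% of these held a CHR form, 75.8% a CCAAT box and 56.45% both. In all 32851 windows of the RefSeq table the shares were 18.4%, 36.1% and 6.92%. The matches describe letters in these windows and are no evidence of binding.

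Genes of DNA replication were higher in part. Of 34 licensing and fork genes 19 were higher and 0 lower (median log2 fold change 0.60), and of 19 nucleotide supply and chromatin assembly genes 15 were higher and 0 lower (median 0.53). Leaving out pair 1, 2 or 3 left 9, 19 and 11 higher in the former and 5, 11 and 6 in the latter. Mcm5, a subunit of the replicative helicase, was at 6.19, 24.8 and 4.17 CPM in libraries 1 to 3 and at 19.2, 58.4 and 11.3 CPM in libraries 7 to 9. Each library exceeded its partner, with library 2 above libraries 7 and 9, and the log2 fold change was 1.42 ± 0.11 (adjusted p 0.0007).

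Mcm2, of the same helicase, showed another order by position: 103, 57.6 and 86.8 CPM in libraries 1 to 3 and 158, 100 and 115 CPM in libraries 7 to 9. Libraries 2 and 8 were the lowest of their blocks, and the log2 fold change was 0.61 ± 0.09 (adjusted p 0.0058). Rrm2, the regulated subunit of ribonucleotide reductase, was at 2.77, 22.3 and 2.64 CPM against 19.1, 72.2 and 15.2 CPM, and the change was 2.23 ± 0.20 (adjusted p 0.0012). Rrm1, its partner subunit, changed by 0.66, and Nasp, a histone chaperone, by 0.53 with blocks that did not overlap.

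Genes upstream of replication differed less in their median. Of 22 G1 cyclin, RB and E2F genes 8 were higher and 1 lower (median 0.22). Calls made up 40.9% of the list, against 20.5% of all genes tested. When pair 1 or pair 3 was left out, edgeR called 0 higher, with 9 and 8 higher at an unadjusted p under 0.05. E2f8, an atypical E2F that represses other E2F targets, was at 0.692, 5.83 and 0.681 CPM against 5.32, 11.96 and 3.92 CPM, a change of 1.94 ± 0.35 (adjusted p 0.011) with overlap. Ccnd1, cyclin D1, changed by 0.37 and Ccne1, cyclin E1, by 0.46, where Ccne1 lost its call in edgeR whichever pair was left out. Rbl2, which encodes the DREAM subunit p130, was lower by -0.46 ± 0.07. E2f1, the activator, had a log2 fold change of -0.09 (adjusted p 0.45).

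Among 28 tested CDK inhibitor and quiescence-linked genes, 2 were higher and 11 lower (median -0.26). Calls made up 46.4% of the list, against 20.5% of all genes tested. Cdkn1c had no counts. Cdkn1a, which encodes the CDK inhibitor p21, was one of the higher ones: it was at 9.44, 3.03 and 12.5 CPM in libraries 1 to 3 and at 14.3, 5.14 and 22.5 CPM in libraries 7 to 9. Libraries 2 and 8 were the lowest of their blocks, the blocks overlapped, and the change was 0.74 ± 0.11 (adjusted p 0.0061). Cdkn1b, which encodes p27, had -0.18 (adjusted p 0.11). Gas1, a membrane protein induced on growth arrest, was at 756, 792 and 587 CPM against 291, 426 and 188 CPM, with no overlap and a change of -1.31 ± 0.14 (adjusted p 0.002).

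Gas6, the ligand of the AXL, TYRO3 and MERTK receptors, was at 83.6, 57.2 and 44.9 CPM in libraries 1 to 3 and at 13.8, 22.2 and 10.6 CPM in libraries 7 to 9. No library of the second block reached the first, and the change was -2.01 ± 0.21 (adjusted p 0.0019). Leaving out pair 1 or pair 3 left 2 lower members of the inhibitor list each time, and without pair 2 there were 13.

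Replication-dependent histone genes, whose mature mRNAs end in a stem-loop and mostly lack a poly(A) tail, went the other way from the S-phase enzymes. Of 9 tested, 6 were lower and 0 higher (median -1.14), or 66.7% called against 20.5% of all genes tested. Leaving out pair 1, 2 or 3 left 4, 6 and 3 lower, and 9 more were too low to test. H2bc4 was at 46.6, 43.5 and 50.8 CPM in libraries 1 to 3 and at 22.3, 17.5 and 21.9 CPM in libraries 7 to 9. The blocks did not overlap, and the change was -1.20 ± 0.08 (adjusted p 0.00055). H1f2 changed by -0.86 and H4c9 by -1.97; reads of near-identical histone copies are divided by estimate, so these 3 values are uncertain by gene.

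Glycolysis genes were higher, most of them without overlap between blocks. Of 26 glycolysis and hypoxia-response genes 19 were higher and 1 lower (median 0.53), against 10.5% and 9.91% of all genes tested. Blocks did not overlap in 15 of the 26, against 20.7% of all genes tested. Slc16a3, the lactate exporter MCT4, was at 36.9, 31.2 and 27.2 CPM in libraries 1 to 3 and at 86.1, 67.1 and 54.3 CPM in libraries 7 to 9. Every library of the second block exceeded the first block, and the change was 1.11 ± 0.08 (adjusted p 0.00055). Pgk1, phosphoglycerate kinase, was at 358, 298 and 283 CPM against 630, 519 and 524 CPM, a change of 0.84 ± 0.08 with no overlap. Pfkp, a phosphofructokinase, changed by 0.69 ± 0.07 with no overlap; its exons meet those of Pitrm1 on the opposite strand. Adm, the peptide adrenomedullin that hypoxia induces, was the lower member (-1.38 ± 0.34, adjusted p 0.03, overlapping). Leaving out pair 1, 2 or 3 left 8, 22 and 9 higher.

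Cholesterol synthesis genes were also mostly higher, and a smaller share of the fatty acid genes was called. Of 23 cholesterol synthesis and uptake genes 16 were higher and 1 lower (median 0.49). Of 13 fatty acid synthesis genes 6 were higher and 0 lower (median 0.28). Calls made up 73.9% and 46.2% of these lists, against 20.5% of all genes tested. Cyp51, lanosterol demethylase, was at 83.9, 177 and 128 CPM in libraries 1 to 3 and at 213, 284 and 258 CPM in libraries 7 to 9. The blocks did not overlap, and the change was 1.01 ± 0.12 (adjusted p 0.003). Exons of Cyp51 overlap those of Akap9 on the opposite strand, which had a mean of 127 CPM. Dhcr7, the last reductase of the pathway, changed by 0.70 and Hsd17b7 by 0.87. Mvd, mevalonate decarboxylase, was the lower member at -0.33 ± 0.08. Among fatty acid genes, Acacb, an acetyl-CoA carboxylase, changed by 0.63 and the desaturase Scd2 by 0.56, both with no overlap. Leaving out pair 1, 2 or 3 left 7, 17 and 8 of the cholesterol list and 1, 7 and 2 of the fatty acid list higher.

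Of 28 ribosome biogenesis genes 16 were higher and 0 lower (median 0.28), or 57.1% called against 20.5% of all genes tested. Leaving out pair 1, 2 or 3 left 3, 14 and 0 higher (16, 17 and 21 at an unadjusted p under 0.05 in edgeR). No member had separate blocks, against 20.7% of all genes tested. Fbl, the fibrillarin methyltransferase of rRNA, was at 82.4, 47.2 and 72.4 CPM against 108, 68.4 and 98.4 CPM, with overlap and a change of 0.46 ± 0.07. Dkc1, the pseudouridine synthase, changed by 0.61 and Ncl, nucleolin, by 0.50. Of 22 NRF2 and oxidative stress genes 7 were higher and 1 lower (median 0.20), or 36.4% called. Leaving out pair 1, 2 or 3 left 1, 10 and 1 higher. Gsta4, a glutathione transferase, changed by 0.89 and Nqo1, a quinone reductase, by 0.62, while Fth1, ferritin heavy chain, was lower by -0.52. Of 25 ATF4 and amino acid response genes 4 were higher and 2 lower, and of 17 endoplasmic reticulum chaperone genes 3 were higher and 0 lower, against 10.5% higher and 9.91% lower over all genes tested. Of 21 nuclear oxidative phosphorylation genes 6 were higher, by 0.30 to 0.43, and 0 lower, or 28.6% called. When pair 1, 2 or 3 was left out, edgeR called 1, 5 and 0 ATF4 genes, 0, 2 and 0 chaperone genes and 0, 6 and 0 oxidative phosphorylation genes higher. At an unadjusted p under 0.05 these were 11, 8 and 9, then 4, 5 and 5, then 7, 10 and 7.

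**Figure D3:**
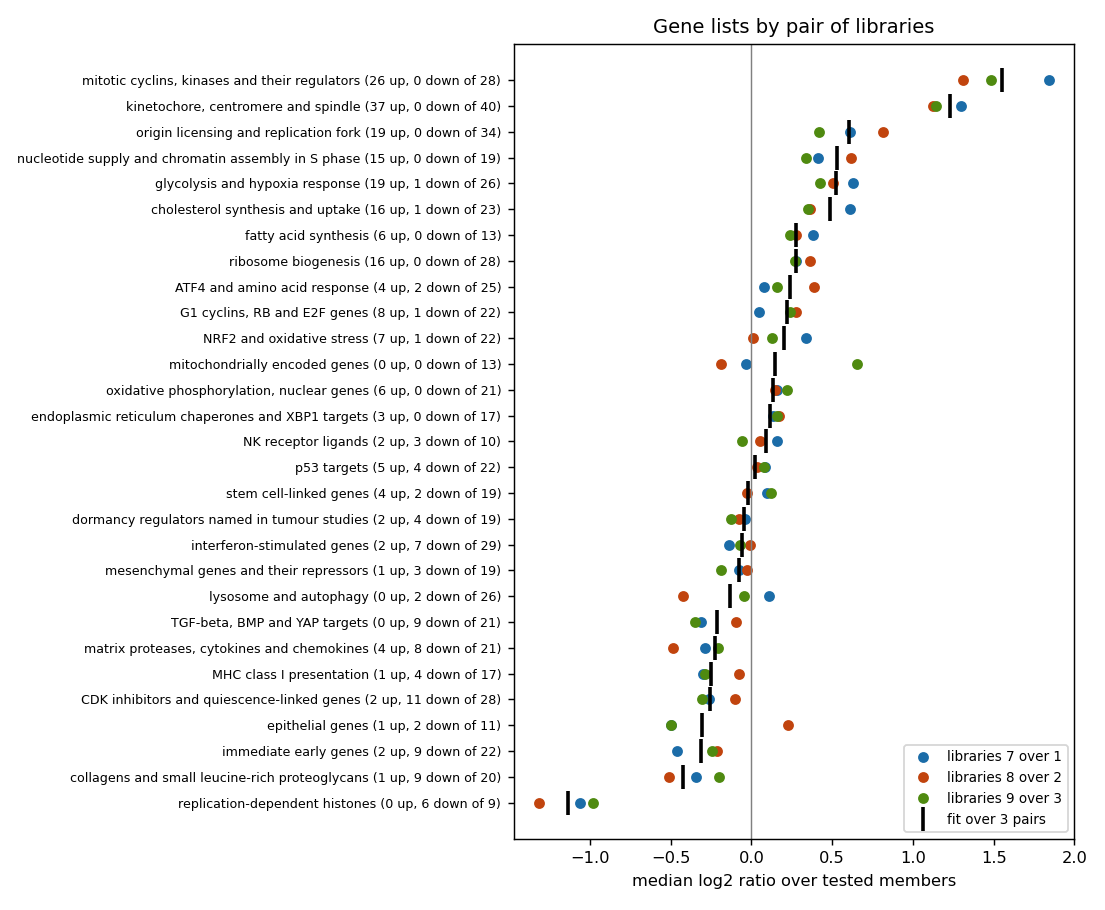
Median log2 ratio over the tested members of 29 gene lists with at least 9 tested members, for each pair of libraries (coloured points) and for the fit over the 3 pairs (black bar); counts of members called are beside each name. The 2 mitosis lists lie furthest to the right in all 3 pairs and the histone list furthest to the left.

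The highest log2 fold changes among genes with a mean of at least 5 CPM included genes that are not in the mitosis and replication lists. Hepacam2, a cell adhesion molecule of the immunoglobulin family, was at 0.208, 0.800 and 1.25 CPM in libraries 1 to 3 and at 9.10, 16.0 and 19.05 CPM in libraries 7 to 9. Its change of 4.33 ± 0.23, or 20.2-fold, was the highest by this rule and the blocks were far apart (adjusted p 0.00022).

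Gsta1, a glutathione transferase of a family of near-identical copies, was at 3.53, 2.29 and 2.78 CPM against 37.2, 16.1 and 44.1 CPM. The blocks did not overlap and the change was 3.42 ± 0.20, with the caveat that reads of copies are shared by estimate. Erbb3, a receptor of the EGFR family that binds neuregulins, was at 0.934, 0.886 and 1.87 CPM against 9.22, 13.7 and 11.9 CPM, a change of 3.27 ± 0.25 (adjusted p 0.0007). Prl2c3, a prolactin-family gene with near-identical copies, was at 25.9, 13.1 and 46.1 CPM against 177, 70.2 and 212 CPM, a change of 2.46 ± 0.12. The other genes among the 12 highest were the division genes Ccnb2, Nuf2, Rrm2, Pimreg, Hmmr, Cenpf, Bub1 and Ncapg.

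The lowest log2 fold changes were mostly without overlap between blocks. Mme, the membrane endopeptidase neprilysin (CD10), was at 486, 380 and 328 CPM in libraries 1 to 3 and at 38.1, 55.5 and 27.9 CPM in libraries 7 to 9. No library of one block came near the other, and the change was -3.33 ± 0.18 (adjusted p 0.00022), 10.0-fold lower. C4b, complement component 4B, was at 297, 207 and 239 CPM against 27.5, 22.0 and 34.4 CPM, a change of -3.16 ± 0.13; its near-identical copy C4a changed by -3.05 and their reads are divided by estimate.

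Slit2, the secreted ligand of ROBO receptors, was at 25.9, 18.1 and 18.0 CPM in libraries 1 to 3 and at 2.35, 1.86 and 1.03 CPM in libraries 7 to 9. The blocks were separate and the change was -3.53 ± 0.16 (adjusted p 0.00018). Also among the 12 lowest were Hp (haptoglobin, -3.61), Snrpn (-3.38), Acp5 (-3.15), Aspn (-3.09), Cxcl3 (-3.04), Plxdc2 (-3.00) and Atp10d (-2.98). Of these Aspn alone overlapped between blocks, with 44.0 CPM in library 2 and 4.12 in library 8, and its exons overlap those of Cenpp on the opposite strand.

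On GRCm38 with the GENCODE M21 annotation, Mme lies at chr3:63241537-63386030 on the plus strand, C4b at chr17:34728380-34743882 on the minus strand and Slit2 at chr5:47983138-48307733 on the plus strand. Hepacam2 lies at chr6:3457096-3498298 and Erbb3 at chr10:128567523-128589652, both on the minus strand. These are the whole spans of protein-coding genes.

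**Figure D4:**
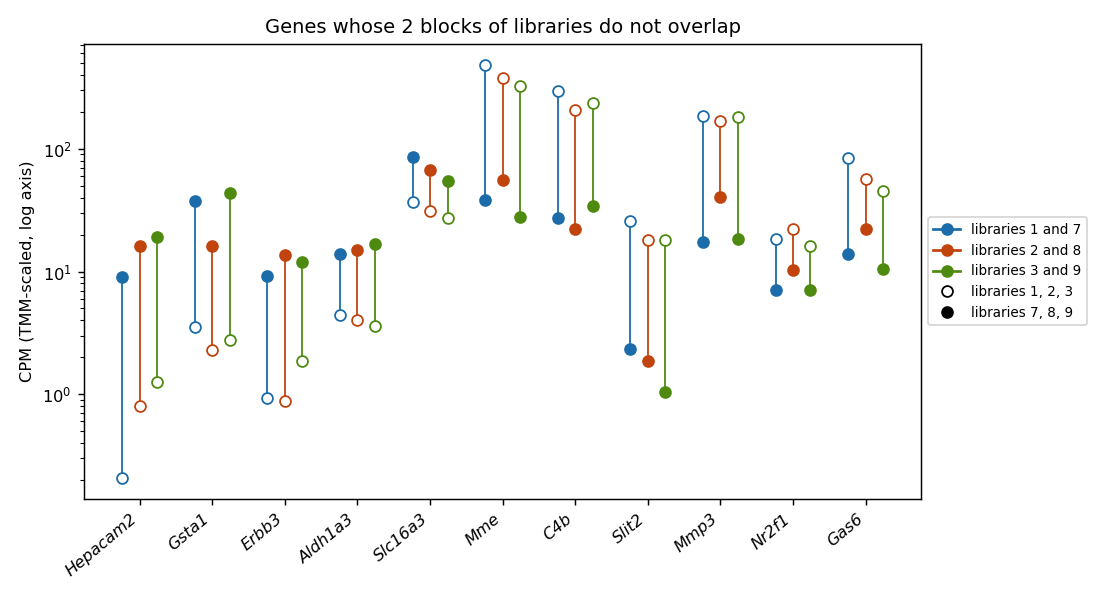
CPM (log axis) in each library of 11 genes whose blocks did not overlap, chosen from those described; open circles are libraries 1 to 3, filled circles libraries 7 to 9, and a line joins each pair. Filled circles lie above open ones for Hepacam2, Gsta1, Erbb3, Aldh1a3 and Slc16a3 and below them for Mme, C4b, Slit2, Mmp3, Nr2f1 and Gas6.

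Matrix genes that were called were lower with 1 exception. Of 20 collagen and small leucine-rich proteoglycan genes 9 were lower and 1 higher (median -0.42), with 4, 9 and 5 lower when pair 1, 2 or 3 was left out. Ogn, osteoglycin, was at 118, 308 and 61.7 CPM in libraries 1 to 3 and at 21.9, 93.4 and 8.38 CPM in libraries 7 to 9. Library 8 lay above library 3, so the blocks overlapped, and the change was -2.28 ± 0.19 (adjusted p 0.001). Omd, osteomodulin, changed by -2.21. Col1a1, a chain of type I collagen, was the higher member: 1092, 3541 and 2053 CPM against 2808, 4291 and 2965 CPM, 0.72 ± 0.19 (adjusted p 0.04). Pdgfra and Pdgfrb, receptors of platelet-derived growth factor that also mark fibroblasts, changed by -0.97 and -0.64, and the summed level of the 9 fibroblast markers ran from 2660 to 8132 CPM in libraries 1 to 3 and from 3749 to 6350 CPM in libraries 7 to 9. The part of another cell type in these results was not tested.

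Among 21 matrix protease, cytokine and chemokine genes 8 were lower and 4 higher (median -0.23), or 57.1% called against 20.5% of all genes tested. Leaving out pair 1, 2 or 3 left 3, 9 and 1 lower. Mmp3, stromelysin 1, was at 187, 170 and 183 CPM in libraries 1 to 3 and at 17.4, 40.3 and 18.3 CPM in libraries 7 to 9. The blocks were separate and the change was -2.92 ± 0.26 (adjusted p 0.0011). Mmp13, a collagenase, changed by -1.82. Mmp9, a gelatinase, was opposite at 0.796, 0.457 and 0.142 CPM against 3.81, 9.68 and 2.88 CPM, a change of 3.53 ± 0.43 (adjusted p 0.0029). Timp1, an inhibitor of these proteases, was 0.69 higher with no overlap.

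Cxcl5, a neutrophil-attracting chemokine, was at 1434, 1217 and 1501 CPM against 389, 658 and 535 CPM. The blocks did not overlap and the change was -1.42 ± 0.18 (adjusted p 0.0031). Ccl5, a T-cell-attracting chemokine, was higher by 1.26 ± 0.20.

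Of 21 TGF-beta, BMP and YAP target genes 9 were lower and 0 higher (median -0.22), and 3, 13 and 2 were lower when pair 1, 2 or 3 was left out. Ccn2, the matricellular YAP target once called CTGF, was at 70.7, 177 and 70.0 CPM in libraries 1 to 3 and at 11.9, 78.3 and 9.58 CPM in libraries 7 to 9. Library 8 lay above libraries 1 and 3, and the change was -2.13 ± 0.30 (adjusted p 0.0048). Smad6, an inhibitor of BMP signalling, changed by -0.65 and Id3, a BMP target, by -0.59.

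Of 22 immediate early genes 9 were lower and 2 higher (median -0.31), with 1, 14 and 1 lower when pair 1, 2 or 3 was left out. Dusp1, a phosphatase that switches off MAP kinases, was at 273, 233 and 246 CPM in libraries 1 to 3 and at 140, 150 and 128 CPM in libraries 7 to 9. The blocks were separate and the change was -0.85 ± 0.09 (adjusted p 0.0018); Ergic1 overlaps it on the opposite strand at a mean of 180.8 CPM. Jun changed by -0.52 and Fosl2 by -0.61, both AP-1 subunits and both without overlap, whereas Fosl1 was higher by 0.52.

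Zeb1, a transcription factor of the epithelial to mesenchymal transition, was lower, while most markers of either state were not called. Of 19 mesenchymal genes 3 were lower and 1 higher, and of 11 tested epithelial genes 2 were lower and 1 higher. The shares called were 21.1% and 27.3%, against 20.5% of all genes tested. Zeb1, a repressor of epithelial genes, was at 3.87, 3.32 and 3.86 CPM in libraries 1 to 3 and at 0.544, 0.973 and 0.327 CPM in libraries 7 to 9. The blocks were separate, at low levels, and the change was -2.55 ± 0.34 (adjusted p 0.0041). Twist2 changed by -1.18, a call lost without pair 1 (adjusted p 0.0617) and without pair 3 (0.0785). Twist1 changed by -0.30, a call lost without pair 1 (0.0671), pair 2 (0.0608) or pair 3 (0.198) in edgeR. S100a4, a calcium-binding protein of motile cells, was 0.77 higher. Vim had -0.08 (adjusted p 0.56) and Cdh1, which encodes E-cadherin, 0.42 (adjusted p 0.11). Dsp, desmoplakin, was lower by -1.43 and Krt8 higher by 0.71.

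Genes tied to dormancy and to stem cells included members in both directions. Of 19 tested dormancy regulators named in tumour studies 2 were higher and 4 lower (median -0.05). Of 19 tested stem cell-linked genes 4 were higher and 2 lower (median -0.02). In each list 31.6% were called, against 20.5% of all genes tested. When pair 1, 2 or 3 was left out, 1, 7 and 2 of the stem cell-linked genes were higher. Nr2f1, an orphan nuclear receptor studied in dormancy, was at 18.3, 22.4 and 16.0 CPM in libraries 1 to 3 and at 7.02, 10.3 and 7.07 CPM in libraries 7 to 9. The blocks did not overlap and the change was -1.23 ± 0.10 (adjusted p 0.001). Tgfb2 changed by -0.36, Wnt5a by 0.86 and Plaur, the urokinase receptor, by 0.76. Bhlhe41, another factor studied in dormancy, had 0.04 (adjusted p 0.72).

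Aldh1a3, an aldehyde dehydrogenase that makes retinoic acid, was at 4.43, 4.06 and 3.60 CPM in libraries 1 to 3 and at 13.9, 15.0 and 16.8 CPM in libraries 7 to 9. The blocks were separate and the change was 1.92 ± 0.14 (adjusted p 0.00062). Sox2, a pluripotency factor, was at 25.7, 29.6 and 22.7 CPM against 16.9, 26.9 and 17.8 CPM; the change of -0.37 ± 0.11 missed the threshold (adjusted p 0.051) and passed it in 5 of 13 other settings, among them without pair 2 (0.0011). Bach1, a haem-regulated repressor, was between 57.8 and 73.1 CPM in the 6 libraries, with a log2 fold change of -0.0028 ± 0.08 (adjusted p 0.98). Cd44 had 0.35 (adjusted p 0.069).

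Genes whose products NK cells and T cells read on a tumour cell included members in both directions. Of 10 tested NK ligand genes 2 were higher and 3 lower. Of 17 class I presentation genes 1 was higher and 4 lower (median -0.25). The shares over all genes tested were 10.5% higher and 9.91% lower. Among the NK ligand genes edgeR called 0, 3 and 0 lower, and 1 higher each time, when pair 1, 2 or 3 was left out. At an unadjusted p under 0.05, 3, 3 and 2 of them were lower and 2, 2 and 3 higher. H2-K1, a classical class I heavy chain, was at 280, 328 and 322 CPM in libraries 1 to 3 and at 212, 210 and 208 CPM in libraries 7 to 9. The blocks did not overlap and the change was -0.56 ± 0.08 (adjusted p 0.0058); reads of class I copies are divided by estimate. When pair 1 or pair 3 was left out, 1 and 0 of the class I genes were called lower by edgeR, and 4 and 6 at an unadjusted p under 0.05.

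Tap2, a peptide transporter subunit, changed by -0.68 and Nlrc5, the class I transactivator, by -0.44, while B2m, the shared light chain, had -0.28 (adjusted p 0.10). Fas, a death receptor, was lower by -0.73 and Tnfrsf10b, the TRAIL receptor, higher by 0.55. Pvr, a ligand of DNAM-1, changed by 0.34 (adjusted p 0.036), a call lost in edgeR without pair 1 (0.162), pair 2 (0.0551) or pair 3 (0.0695). Ulbp1, a ligand of NKG2D, had 0.13 (adjusted p 0.51) and Nectin2, a second DNAM-1 ligand, 0.14 (adjusted p 0.43). Of 29 interferon-stimulated genes 7 were lower and 2 higher (median -0.06), against 9.91% and 10.5% of all genes tested. Those with the smallest p included the guanylate-binding proteins Gbp3 (-0.44) and Gbp2 (-0.79), both of which lost the call without pair 1 or pair 3. When pair 1, 2 or 3 was left out, edgeR called 0, 7 and 0 of the list lower, and 7, 11 and 6 at an unadjusted p under 0.05. Of 22 p53 target genes 5 were higher and 4 lower (median 0.02), with Plk3 at 0.50 and Ei24 at -0.30. The share called was 40.9%, against 20.5% of all genes tested. Of that list 3, 6 and 2 were higher and 0, 5 and 0 lower when pair 1, 2 or 3 was left out, and 4, 8 and 4 were lower at an unadjusted p under 0.05 in edgeR.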

How the data were processed

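The authors deposited RSEM expected counts (estimated counts) per gene, not normalised and already whole numbers. Per the submitters' processing notes, the tools were STAR 2.7.8a and RSEM 1.3.3 on GRCm38, with cutadapt 2.3 and FastQC 0.11.8. The sources used here give neither annotation release nor strand setting. Further named genes also share exon positions with a gene on the opposite strand. Among them are Twist2 (Gm29100, mean 25.1 CPM against 14.0 for Twist2), Dkc1 (Mpp1, 37.1 CPM) and Rbl2 (Aktip, 37.5 CPM). Reads shared by near-identical genes are split by likelihood in RSEM.

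Of 55487 genes, 14241 passed the edgeR 4.0.16 filter with the 2 blocks as groups, and these held 99.9% of the counts. TMM factors, position and block entered a quasi-likelihood fit in R 4.3.3, with Benjamini-Hochberg adjustment over all genes tested and calls at an adjusted p under 0.05. The fit was tested on simulated data. The pairing by position was set by the rule that defines this comparison, not by the labels. The correlation of deviations from the block means was over 0.1 in each of the 3 pairs. It was also over 0.1 for libraries 3 and 7 (0.24) and 1 and 9 (0.18). As it comes from the same counts, it is no independent test of the pairing.

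The members and the 32 gene lists were chosen with earlier results of these data known. Named genes are the 12 highest and 12 lowest log2 fold changes among called genes with a mean of at least 5 CPM (predicted and clone-named genes left out), up to 3 called members of each list in each direction by p, and a fixed set; some are given only within counts, and 1 is not reported here. Of 690 listed symbols, 4 were not found. Promoters come from RefSeq (GRCm38.p6). Alternatives were other scalings, filters, tools and libraries left out.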

Additional observations from a re-analysis of the deposited data

How the results depend on the processing

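The result that depended most on the processing was the count of calls. With the replicate block left out, 16 genes were higher and 58 lower, against 1502 and 1411 with it, and all 74 were among the calls of the paired fit; every library correlated best with the library at its own position, as a hint from the data and not from the design. With all 9 libraries in the fit the counts were 2681 and 2380. At an adjusted p under 0.01 they were 451 and 459, and with a fold of at least 2 they were 265 and 406. Leaving out a pair gave from 277 to 1771 higher and from 271 to 1963 lower genes; with 2 pairs left the fit has few residual degrees of freedom. A single library could not be left out of the paired fit without leaving its partner alone, so pairs were left out. RLE size factors, library totals alone, no filter, a mean of at least 1 CPM, DESeq2 1.42.0 and limma voom 3.58.1 with the same pairing gave 1358 to 1861 higher and 1188 to 1741 lower genes. Of 110 genes named, Bach1 changed sign, from -0.0028 to 0.011 with RLE size factors, 0.0028 with no filter, 0.011 with DESeq2, between -0.090 and 0.061 when a replicate pair was left out, each far from the threshold. Twist1 missed the threshold with RLE size factors (adjusted p 0.0523) and DESeq2 (0.0631), and Ccne1 with DESeq2 (0.0526). Calls were gained by Sox2 in 5 of the 13 settings, by Cd44 in 4, by B2m and Cdh1 in 2 each and by Cdkn1b in 1. The cause of these changes was not tested. Depth limits genes near 0.160 CPM in library 9, the shallowest.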

Other observations

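The medians of the lysosome and mitochondrial gene lists differed in sign between pairs. Of 26 lysosome and autophagy genes 2, Ulk1 and Map1lc3b, were lower and 0 higher, or 7.69% called against 20.5% of all genes tested. When pair 1, 2 or 3 was left out, edgeR called 0, 4 and 0 lower and 0, 2 and 0 higher. At an unadjusted p under 0.05, 6, 4 and 2 were lower. Without the pairing 0 were called. The median log2 ratio of the list was 0.11 in pair 1, -0.42 in pair 2 and -0.05 in pair 3. The 13 mitochondrially encoded protein genes had medians of -0.03, -0.19 and 0.65 in pairs 1, 2 and 3, and 0 were called by edgeR's quasi-likelihood test with the 3 pairs, by DESeq2 or by limma voom. At an unadjusted p under 0.05, 0 were found by edgeR and 1 by DESeq2. With no filter on low counts edgeR called 2 higher. Without pair 2 it called 7 higher, where calls over all genes also rose, to 1771 higher and 1963 lower. Without pair 3 it called 0, and the median was -0.13 with 3 lower at an unadjusted p under 0.05.

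Tissue and cell type genes at very low levels included Cd4, a T-cell co-receptor, which was at 0.726, 0.343 and 0.596 CPM in libraries 1 to 3 and at 0.124, 0.0834 and 0 CPM in libraries 7 to 9 (log2 fold change -2.72 ± 0.59, adjusted p 0.02). Cd14, a lipopolysaccharide co-receptor, was at 7.16, 5.95 and 7.26 CPM against 2.13, 3.11 and 2.94 CPM (log2 fold change -1.32 ± 0.19, adjusted p 0.0058).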
